A study of Homo sapiens with 16 samples.

Results

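The transient gains are 579 open chromatin regions that were more accessible 2 h after dTAG47 was added to Rh30 cells and no more accessible than in DMSO by 24 h. They were chosen by measured values of experiment 6086. The choice used CPM, a region's read count scaled to the library's total over all regions of the table, and asked for a mean of at least 5 CPM over the 8 libraries. It also asked for a log2 ratio of the mean 2 h CPM to the mean DMSO CPM of at least 0.25, and for a 24 h ratio of 0 or less, with 0.5 CPM added above and below. The 579 regions were 1.21% of the 48035 regions with at least 5 CPM and 1.02% of the 56949 regions in the table. Of the 1926 regions past the 2 h threshold, 30.1% were transient, and the other 1347 had a 24 h ratio above 0, however small.

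Rh30 is a cell line of fusion-positive rhabdomyosarcoma, a childhood tumour with features of skeletal muscle. In every group, DMSO included, the cells carried PAX3-FOXO1 fused to an FKBP-based tag. The treated groups received 500 nM dTAG47. Experiment 6211 sampled treated cells at 0.5, 1 and 2 h and DMSO cells. Experiment 6086 sampled treated cells at 2, 4 and 24 h and DMSO cells of its own. Each group had 2 libraries, 16 in all, named A and B here. Whether they are separate cultures is not in the labels, and the p-values cover library-to-library spread alone, possibly of technical origin. The level of the fusion protein was not analysed here.

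PAX3-FOXO1 joins the DNA-binding domains of the developmental regulator PAX3 to the activation domain of FOXO1, and it keeps enhancers of muscle and neural genes active in these tumours. dTAG47 brings the tagged protein to the cereblon ubiquitin ligase, which marks it for destruction by the proteasome. ATAC-seq uses a transposase that cuts accessible DNA, so reads pile up where nucleosomes are absent, as at promoters and enhancers bound by transcription factors.

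Each library held 18038062 to 31308682 reads in the regions of 6086 and 9934147 to 18275976 reads in those of 6211. A transient gain rested on 69 to 1319 reads per library in 6086 and on 57 to 1222 in 6211. The 2 tables have different regions, with a median width of 320 bp in 6086 and 401 bp in 6211, so a level in CPM is compared only within a table. Coordinates are hg19 and count from 1.

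In 6086 the gains at 2 h were small and closely spaced in size. Their 2 h log2 ratio had a median of 0.29, or 1.23-fold, with quartiles of 0.27 and 0.34, and reached 0.61, or 1.52-fold. It lay under 0.3 in 316 regions and at 0.4 or more in 38. The median was 0.14 at 4 h and -0.21 at 24 h. Over all regions with at least 5 CPM the medians were 0.016 at 2 h, 0.019 at 4 h and 0.019 at 24 h. Both 2 h libraries lay above both DMSO libraries in 562 of the 579 regions. These values are the ones that picked the regions, or share DMSO libraries with them, so they describe the choice and support nothing.

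The rule used the 4 h libraries only in the mean CPM, although the 4 h ratio shares its DMSO libraries with the rule. In 543 regions the 4 h ratio lay between the 2 h and 24 h ratios. It was above 0 in 526 regions and at or below 0 in 53, and 99 still had 0.25 or more. In 33 regions the 4 h ratio was at or above the 2 h ratio, and in 3 it was at or below the 24 h ratio. The rule fixed the 2 h and 24 h ends over the same DMSO libraries, so this order is a description.

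The library medians of the transient gains in 6086 were -0.015 and 0.015 in DMSO, 0.30 and 0.30 at 2 h, 0.16 and 0.13 at 4 h, and -0.24 and -0.20 at 24 h. Each is the median over the 579 regions of the log2 ratio of a library to the mean DMSO level. The 2 libraries of a time lay closer to each other than to those of any other time. In the 6211 regions that overlapped them, the library medians were -0.020 and 0.019 in DMSO, 0.091 and 0.094 at 0.5 h, 0.073 and 0.15 at 1 h, and 0.22 and 0.27 at 2 h. The group means there were 0.092 ± 0.0025 at 0.5 h, 0.11 ± 0.053 at 1 h and 0.25 ± 0.034 at 2 h (SD, n = 2 libraries each). Both 2 h libraries lay above every earlier library, while the 0.5 h and 1 h libraries overlapped.

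**Figure D1:**
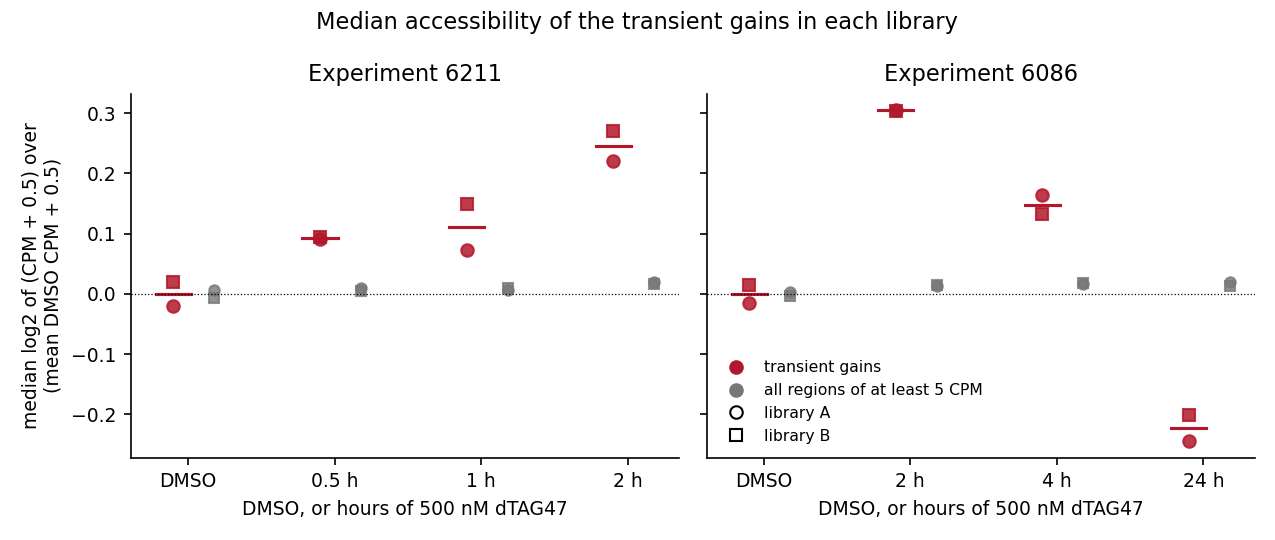
Median log2 ratio of each library to the mean DMSO level, for experiment 6211 (left) and 6086 (right), with DMSO and then the hours of dTAG47 along the horizontal axis. Red marks are the transient gains (441 with a region in 6211, 579 in 6086) with a bar at the mean of the libraries, and grey marks are all regions with at least 5 CPM. The red medians reach 0.22 and 0.27 at 2 h in 6211, and in 6086 they stand at 0.30 at 2 h and at -0.24 and -0.20 at 24 h, while the grey marks stay near 0.

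The largest 2 h ratio belonged to chr19:38511091-38511299. It had 7.41 and 8.17 CPM at 2 h, against 5.04 and 4.84 CPM in DMSO, and 4.45 and 5.30 CPM at 24 h. No region of 6211 overlapped it, so the gain has no second reading. The next, chr1:228532480-228532750, had 9.97 and 10.1 CPM at 2 h, against 6.04 and 7.52 CPM in DMSO. In 6211 it had 11.2 and 12.7 CPM at 2 h, against 7.60 and 10.1 CPM in DMSO. The 2 h libraries lay above the DMSO libraries in both experiments, but the 6211 change of 0.43 ± 0.17 (log2, SE) did not pass edgeR's test, which here asks for an adjusted p under 0.05 (edgeR adjusted p = 0.15).

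The most open of the transient gains was chr1:112276013-112276818, with a mean of 45.4 CPM. It had 54.6 and 52.0 CPM at 2 h, against 44.5 and 42.2 CPM in DMSO, and 35.2 and 35.6 CPM at 24 h. In 6211 it had 66.9 and 69.8 CPM at 2 h, against 58.6 and 61.3 CPM in DMSO, a change of 0.17 ± 0.077 (log2, SE; edgeR adjusted p = 0.20). The 2 h libraries lay above the DMSO libraries there too, and the 6086 ratio was 0.29.

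The deepest fall at 24 h was at chr6:35413569-35413814. That region had 9.68 and 9.86 CPM at 2 h, against 7.43 and 8.14 CPM in DMSO, then 9.83 and 6.66 CPM at 4 h and 2.66 and 3.03 CPM at 24 h. Its 24 h ratio was -1.31, and its 6211 change at 2 h was 0.20 ± 0.15 (log2, SE; edgeR adjusted p = 0.48). At chr1:33812559-33812884 the levels were 15.4 and 19.1 CPM at 2 h, against 14.1 and 12.6 CPM in DMSO, and 5.88 and 6.16 CPM at 24 h. For both, the 24 h loss was several times the 2 h gain on the log2 scale.

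Near each threshold the regions on either side had nearly the same values. The lowest 2 h ratio inside was 0.25008, at chr2:12638918-12639232, and the nearest outside was 0.24999, at chr2:113990302-113990552. At 24 h the nearest inside was -0.00038 (chr2:219741519-219741723) and the nearest outside 0.00039 (chr4:26755282-26755594). For level these were 5.0029 CPM (chr3:132702079-132702233) and 4.9967 CPM (chr6:130922146-130922315).

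A region is called where edgeR's quasi-likelihood test gave an adjusted p under 0.05 (Benjamini-Hochberg, over all regions of its table). In 6086 the test called 136 transient gains, 23.5%, higher at 2 h than in DMSO, where 0.978% of all regions were called higher. At 4 h it called 29 higher, against 1.75% of all regions. At 24 h it called 264, 45.6%, lower than DMSO, against 18.6% of all regions, and it called 574 lower at 24 h than at 2 h, against 17.6%. The rule used these libraries, and nothing is read from those shares.

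The 264 regions called below DMSO at 24 h and the 315 that were not had near-equal 2 h ratios, with medians of 0.29 and 0.29. At 4 h the medians were 0.11 and 0.17, and at 24 h -0.46 and -0.088. The regions were split by the 24 h call, so their 24 h medians differ by construction. A 24 h ratio between -0.1 and 0 was found in 169 regions and one of -0.5 or less in 109.

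The step from 2 h to 4 h was rarely called. Only 3 transient gains, 0.518%, were called lower at 4 h than at 2 h, against 0.0773% of all regions. An unadjusted edgeR p under 0.05 in that direction was found in 202 of the 579. Among the 48035 regions with at least 5 CPM it was found in 2488. The 3, named after their values were seen, were chr10:42385111-42385361, chr17:3887294-3887687 and chr18:108094-108547. At chr17:3887294-3887687 the levels were 12.4 and 11.1 CPM at 4 h, against 16.63 and 15.96 CPM at 2 h, with 12.5 and 12.7 CPM in DMSO. Both 4 h libraries lay just below both DMSO libraries. The 2 h libraries were picked for being high, so the step down is a description. In 6211 it had 15.03 and 16.005 CPM at 2 h, against 12.02 and 15.60 CPM in DMSO, which was not called (edgeR adjusted p = 0.57).

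Experiment 6211 shares no library with the rule, and it tests whether the 2 h gain was present in a separate experiment. Regions of 6211 overlapped 441 of the 579 transient gains, 76.2%, against 79.8% of all regions with at least 5 CPM. They were 440 separate regions, since 1 was shared by a pair of transient gains. The 138 without an overlap were lower and narrower, with a median of 6.22 CPM and 233 bp, against 9.17 CPM and 305 bp for the 441.

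At 2 h in 6211 the overlapping regions stood above DMSO as a group. The log2 change was above 0 in 399 of 441, or 90.5%, against 50.7% of all regions of 6211. Its median was 0.24, with quartiles of 0.12 and 0.38 and a range of -0.36 to 1.02, against a median of 0.0035 over all regions. Both 2 h libraries lay above both DMSO libraries in 308, or 69.8%, against 27.5% of all regions. Both lay below in 12, or 2.72%, against 21.6% of all regions.

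The test called 74 of the 441 higher at 2 h, which is 16.8%, against 1.97% of all regions of 6211. In edgeR 0 were called lower, against 4.92% of all regions, 1 had an unadjusted p under 0.05 for a lower level, and DESeq2 called 0 lower too. All 74 had both 2 h libraries above both DMSO libraries. The number rested on single libraries. It was 16 without 2 h library B, 17 without DMSO library A and 45 without 2 h library A. Without those libraries the shares of all regions called were 0.267%, 0.477% and 1.23%, and the share of the transient gains was 3.63%, 3.85% and 10.2%. With DESeq2 it was 18, or 4.08%, against 0.379% of all regions, and 47 when the fit held only the 2 h and DMSO libraries. The median change moved less, between 0.22 and 0.26 when each library was left out in turn.

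**Figure D2:**
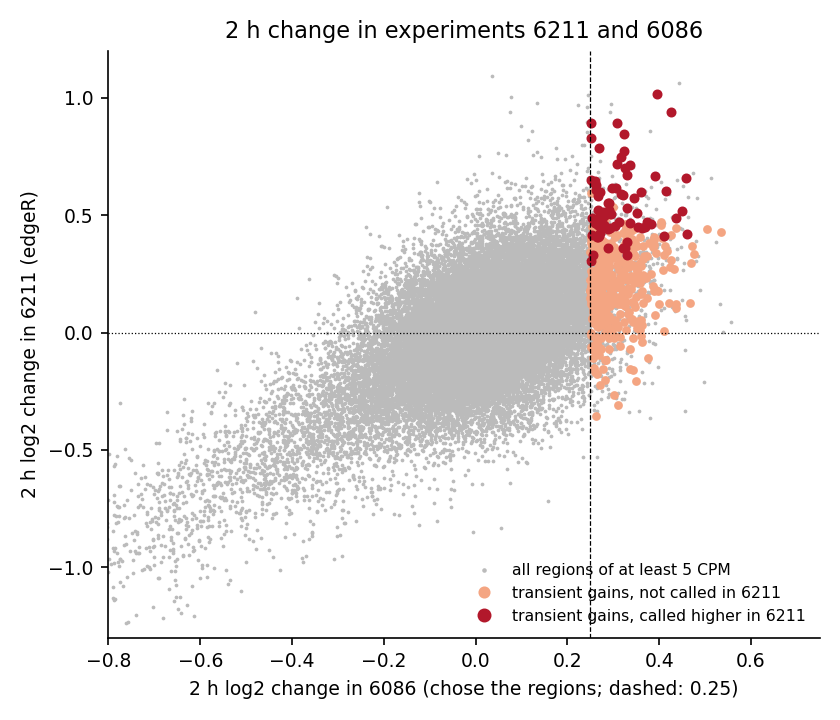
The 2 h log2 change in experiment 6086 (horizontal, the value that chose the regions, with the threshold of 0.25 dashed) and in experiment 6211 (vertical, edgeR), for 441 transient gains with an overlapping region. Grey points are all overlapping regions with at least 5 CPM, those beyond the axes not drawn, orange points transient gains not called in 6211 and red points the 74 called higher. A total of 399 lie above 0 on the vertical axis.

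The size of the gain in 6086 was weakly related to its size in 6211. Across the 441 regions Pearson's r was 0.17 and Spearman's rho 0.15, over regions that share the same libraries and were cut at 0.25. Among 244 regions with a 6086 ratio of 0.25 to 0.3, 15.6% were called in 6211, with a median change of 0.21. Among 168 regions at 0.3 to 0.4 it was 17.3%, with a median of 0.24. Of the 29 at 0.4 or more, 24.1% were called, the median was 0.37 and all 29 were above 0.

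The called share was also read at 2 levels of accessibility. Of 246 regions with a mean of 5 to 10 CPM in 6086, 26 were called in 6211, or 10.6%, with a median change of 0.21. Of all regions at that level with a region in 6211, 1.65% were called higher, with a median of -0.0014. Of 195 with 10 CPM or more, 48 were called, or 24.6%, with a median of 0.28. Of all regions at that level, 1.89% were called higher, with a median of 0.0055. The share of changes above 0 was 87.4% in the transient gains of 5 to 10 CPM and 94.4% in those of 10 CPM or more, against 49.7% and 51.2% of all regions at the same levels. Whether the called share differed between the levels was not tested.

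The end point in 6086 went with little difference at 2 h in 6211. Of the 204 called lower at 24 h, 39 were called higher at 2 h in 6211, or 19.1%, with a median of 0.25. Of the 237 not called at 24 h, 35 were called, or 14.8%, with a median of 0.23. Of the 1347 gains with a 24 h ratio above 0 in 6086, 798 had a region in 6211. Of those, 94 were called, or 11.8%, with a median of 0.20. The differences between these sets were not tested.

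Of the 74 called in 6211, 34 had also been called higher at 2 h in 6086. They were 45.9% of the 74 and 27.6% of the 123 transient gains called in 6086 that had a region in 6211. In the authors' deposited table for 2 h in 6086, 14 transient gains, or 2.42%, had an adjusted p under 0.05 and a higher level, against 0.123% of all regions with an adjusted p there. The authors' deposited table for 2 h in 6211 put 18 higher, or 4.08% of the 441, against 0.379% of all regions. The DESeq2 run here gave the same numbers from the same libraries, so this is not a second reading. For 24 h in 6086, the authors' deposited table put 182 lower, or 31.4%, against 12.5% of all regions. The authors' deposited table for 4 h put 2 higher, or 0.345%, against 0.327%, a share near the background. The rule used the 2 h and 24 h libraries of 6086, so nothing is read from those counts.

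The earlier times of 6211 were nearer to DMSO. At 0.5 h the median change was 0.094 and 76.9% of the 441 were above 0, against 49.6% of all regions. None was called higher in edgeR or DESeq2, against 0% of all regions. An unadjusted edgeR p under 0.05 for a higher level was found in 30, against 952 of the 40844 regions of 6211. At 1 h the median was 0.13 and 75.7% were above 0, against 51.8% of all regions. There 2 were called higher, against 0.22% of all regions, and 1 lower, against 2.47%. DESeq2 called 0 at 1 h. The count higher moved when single libraries were left out, and so did the share of all regions called.

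The regions called at 1 h are named after their values were seen. At chr11:1123301-1123722 the levels were 22.9 and 26.2 CPM in DMSO, 29.9 and 28.7 CPM at 0.5 h, 32.4 and 32.2 CPM at 1 h and 33.5 and 34.5 CPM at 2 h. Every treated library was above both DMSO libraries. At chr22:43093500-43094022 they were 24.6 and 27.1 CPM in DMSO, 27.9 and 29.0 CPM at 0.5 h, 32.0 and 34.4 CPM at 1 h and 33.3 and 36.6 CPM at 2 h. Most of the gain at both was present by 1 h, but both were picked by the 1 h call, so this timing is a description. The region called lower, chr12:63260657-63260880, had 10.3 and 12.2 CPM at 1 h, against 16.2 and 16.2 CPM in DMSO, and 13.7 and 13.5 CPM at 2 h, which goes against its 2 h gain in 6086.

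The 2 h libraries of 6211 were also set against the earlier treated libraries, a comparison with no DMSO library on either side. The DMSO libraries were still part of the fit, and so of its scaling and its estimate of spread. Against 1 h the median change was 0.11, 82.1% were above 0 and 12 regions were called higher, against 0.326% of all regions. Against 0.5 h the median was 0.16, 85.03% were above 0 and 6 were called, against 0.147%. None was called lower in either; 0 had an unadjusted edgeR p under 0.05 for a lower level, and DESeq2 called 0 lower. Of the 12, 9 lay in 1 stretch of chromosome 12, and 3 were left outside it. Those 3 were chr10:42385111-42385361, chr18:108094-108547 and chr19:27731926-27732195, all with replicate libraries far apart. At the chromosome 19 region the levels were 12.3 and 24.7 CPM in DMSO, 17.9 and 26.6 CPM at 0.5 h, 13.6 and 13.0 CPM at 1 h and 22.8 and 32.9 CPM at 2 h. Its 2 h change against DMSO was not called (edgeR adjusted p = 0.10). The 12 became 3 with DESeq2, 0 when library B of either 2 h or 1 h was left out. The 6 became 0 with DESeq2, 0 without 2 h library B, and 0 without either 0.5 h library.

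Among the 74, the change grew with time in most. The medians were 0.20 at 0.5 h, 0.26 at 1 h and 0.51 at 2 h, and 2 h changes ran between 0.30 and 1.02. At 0.5 h 73 were above 0 and at 1 h 62. In 50 the changes were in order of time, against 205 of all 441. The 74 were selected by the 2 h test, so their order is a description.

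A set of 8 regions was called higher at 2 h in each of 11 fits, which were the edgeR fit, DESeq2, 3 other scalings or filters, a fit of the 2 groups alone, a fit with the library letter as a block and the 4 fits that leave out a 2 h or DMSO library. They were 1.81% of the 441, against 0.108% of all regions of 6211. They were picked for passing every fit, so their values are given as a description. In all 8, both 2 h libraries were above both DMSO libraries in 6211.

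The narrowest, chr9:124366584-124366757, is 174 bp wide. In 6211 it had 9.07 and 8.87 CPM in DMSO, 11.1 and 10.4 CPM at 0.5 h, 11.9 and 12.2 CPM at 1 h and 15.5 and 16.8 CPM at 2 h. The groups were in order of time with no overlap. The 2 h change was 0.83 ± 0.14 (log2, SE; edgeR adjusted p = 0.00029). In 6086 it had 5.71 and 5.62 CPM in DMSO, 6.99 and 6.69 CPM at 2 h, 4.66 and 6.38 CPM at 4 h and 4.95 and 4.63 CPM at 24 h. By 4 h its libraries lay on both sides of DMSO.

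At chr11:2821262-2821669 the 6211 levels were 18.9 and 18.6 CPM at 2 h, against 10.1 and 11.8 CPM in DMSO, a change of 0.77 ± 0.14 (log2, SE; edgeR adjusted p = 0.00069). In 6086 they were 10.6 and 10.7 CPM in DMSO, 13.5 and 13.3 CPM at 2 h, 14.4 and 13.5 CPM at 4 h and 9.57 and 10.0 CPM at 24 h. Here the gain was still whole at 4 h and gone by 24 h. At chr22:23270851-23271252 the 6211 levels were 15.4 and 16.9 CPM at 2 h, against 9.37 and 9.62 CPM in DMSO (edgeR adjusted p = 0.00092). In 6086 it had 10.5 and 10.1 CPM in DMSO, 13.0 and 13.0 CPM at 2 h, 12.9 and 12.6 CPM at 4 h and 9.40 and 10.3 CPM at 24 h. Its gain, too, was present at 4 h and absent at 24 h.

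The region chr9:132101325-132101614 had 19.8 and 21.7 CPM at 2 h in 6211, against 13.3 and 11.5 CPM in DMSO, a change of 0.72 ± 0.13 (log2, SE; edgeR adjusted p = 0.00077). In 6086 it had 8.87 and 8.84 CPM in DMSO, 11.5 and 10.6 CPM at 2 h, 9.09 and 8.57 CPM at 4 h and 5.82 and 6.52 CPM at 24 h. It was at its DMSO level by 4 h and below it at 24 h. At chr11:2404019-2404842, among the most open and widest transient gains, the 6211 levels were 47.0 and 48.1 CPM at 2 h, against 35.5 and 31.3 CPM in DMSO (edgeR adjusted p = 0.0011). Another chromosome 11 region, chr11:44010897-44011570, had 35.5 and 36.3 CPM at 2 h, against 25.5 and 26.1 CPM in DMSO (edgeR adjusted p = 0.0030), and in 6086 fell to 17.2 and 17.7 CPM at 24 h, against 20.7 and 22.2 CPM in DMSO.

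The other 2 were on chromosome 12, both in the stretch of 57 to 59 Mb that is described below. At chr12:57872986-57873775 the 6211 levels were 69.7 and 71.1 CPM at 2 h, against 45.1 and 50.2 CPM in DMSO (edgeR adjusted p = 0.00010). In 6086 they were 37.4 and 34.9 CPM in DMSO, 43.8 and 44.7 CPM at 2 h, 36.4 and 38.6 CPM at 4 h and 17.5 and 17.2 CPM at 24 h. This region had the largest 24 h loss of the 8. At chr12:57581472-57582212 the 6211 levels were 40.4 and 42.8 CPM at 2 h, against 22.9 and 27.9 CPM in DMSO (edgeR adjusted p = 0.00019).

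**Figure D3:**
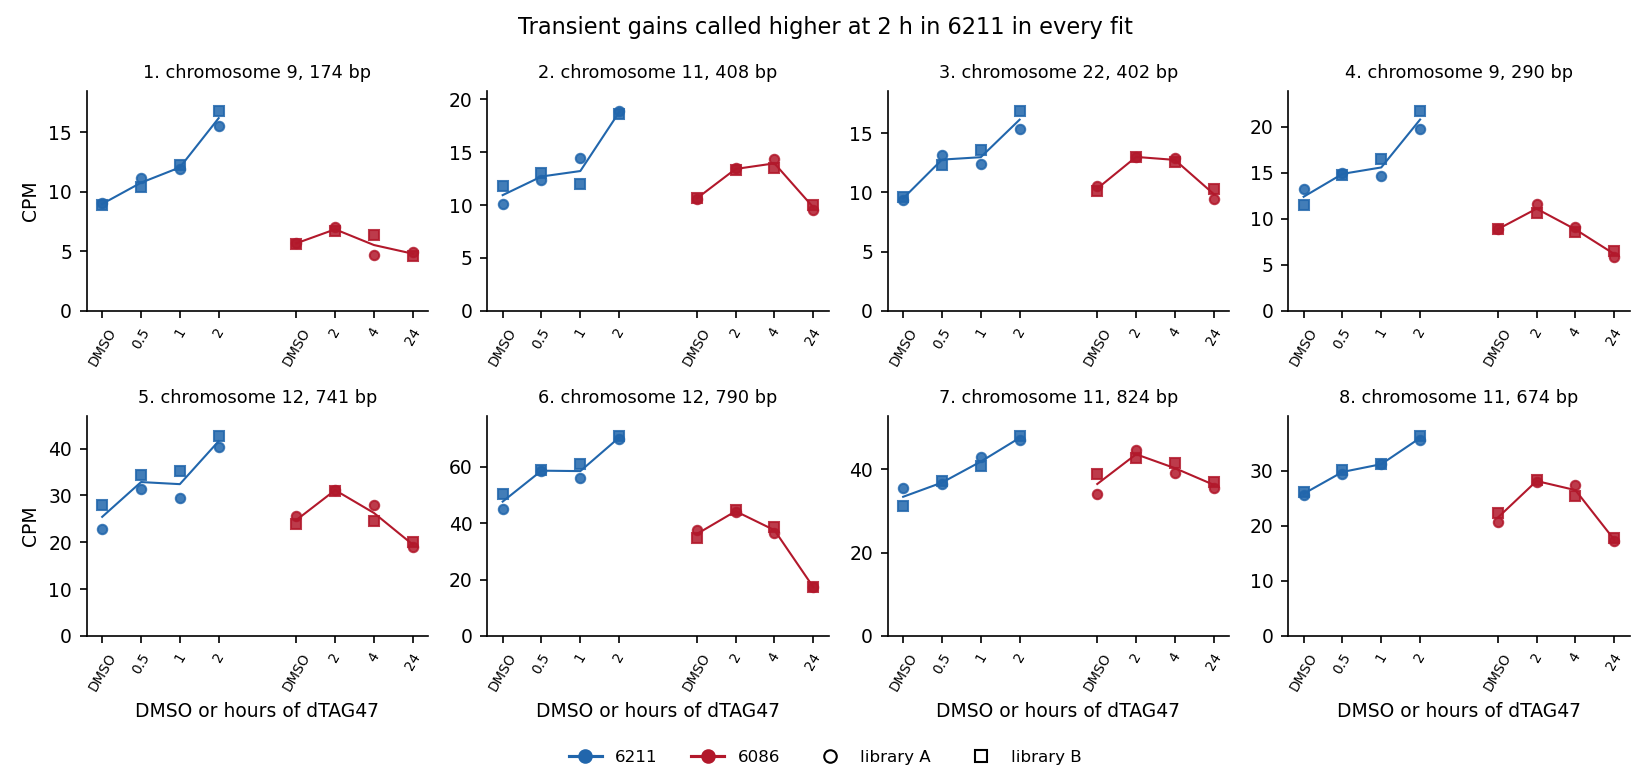
CPM by library in 6211 (blue; DMSO, 0.5, 1 and 2 h) and 6086 (red; DMSO, 2, 4 and 24 h) for the 8 transient gains called higher at 2 h in 6211 in every fit, ordered by their 6211 change, with lines through the group means and each vertical axis starting at 0. The colours come from tables with different regions, so levels compare only within a colour. All 8 are highest at 2 h in blue, and in red they peak at 2 or 4 h and are lower again at 24 h.

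The transient gains were spread over the genome with 1 dense stretch. Every chromosome with regions of at least 5 CPM but Y held some, and the share ran between 0.205% of regions on X and 1.72% on chromosome 22. They lay in 434 windows of 1 Mb, 333 of which held 1. The window with the most was 58 to 59 Mb of chromosome 12, with 11 of 101 regions, followed by 57 to 58 Mb with 5 of 93. No other window held more than 4. This stretch of chromosome 12 holds CDK4, which drives the cell cycle, and GLI1, a Hedgehog pathway transcription factor, and is known to be amplified in Rh30.

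The stretch held 16 transient gains among 194 regions with at least 5 CPM, or 8.25%. It accounted for 2.76% of the transient gains and 0.404% of the regions with at least 5 CPM. It was set apart after these counts were seen. Of the 16, 15 had a region in 6211 and 11 of those were called higher at 2 h. Their median changes in 6211 were 0.19 at 0.5 h, -0.15 at 1 h and 0.65 at 2 h. Outside the stretch 63 of 426 were called, or 14.8%, against 1.68% of all regions of 6211 outside it, with a median 2 h change of 0.23.

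Libraries of the same group differed more in the stretch than outside it. In 6211 the library medians of its transient gains were -0.15 and 0.13 in DMSO, 0.073 and 0.29 at 0.5 h, -0.036 and -0.38 at 1 h and 0.43 and 0.74 at 2 h. Outside they were -0.017 and 0.017 in DMSO, 0.091 and 0.092 at 0.5 h, 0.074 and 0.16 at 1 h and 0.22 and 0.26 at 2 h. The gap between replicate libraries was wider in the stretch at every time.

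Other regions of the stretch also rose at 2 h in 6211, to a smaller degree. It held 178 regions with at least 5 CPM that were not transient gains, and 161 regions of 6211 overlapped those alone. Their median 2 h change was 0.19, with 48 called higher, or 29.8%, and 2 lower, against 1.97% and 4.92% of all regions of 6211. Their library medians were 0.16 and 0.23 at 2 h and -0.0046 and -0.0086 at 1 h, against -0.050 and 0.048 in DMSO. The 1 h fall of the stretch's transient gains was not seen in these medians. In 6086, 10 of the 178 were called higher at 2 h and 8 lower. Of all regions with at least 5 CPM, 1.07% were called higher there and 4.35% lower. The library medians of the 178 at 24 h were -0.0078 and -0.0079. The number of copies of the stretch in each library was not measured, and its part in the result was not tested.

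The pattern of the stretch's transient gains, with a 1 h level below DMSO, was not shared by 2 of its regions. Those 2 were picked for being called in every fit, left-out libraries included, so this is a description. At chr12:57581472-57582212 the 6211 levels were 29.5 and 35.3 CPM at 1 h, against 22.9 and 27.9 CPM in DMSO. At chr12:57872986-57873775 they were 56.0 and 61.0 CPM at 1 h, against 45.1 and 50.2 CPM in DMSO. Another region inside the stretch shows the pattern. At chr12:58219265-58219571 the 6211 levels were 13.1 and 21.9 CPM in DMSO, 18.1 and 23.7 CPM at 0.5 h, 16.9 and 11.5 CPM at 1 h and 27.3 and 40.1 CPM at 2 h. Both 2 h libraries were the highest, but the DMSO libraries differed widely. The 2 h change was 0.94 ± 0.20 (log2, SE; edgeR adjusted p = 0.0029), and using DESeq2 or leaving out DMSO library A or 2 h library B ended the call. In 6086 the region had 8.23 and 8.55 CPM at 2 h, against 7.43 and 4.81 CPM in DMSO.

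**Figure D4:**
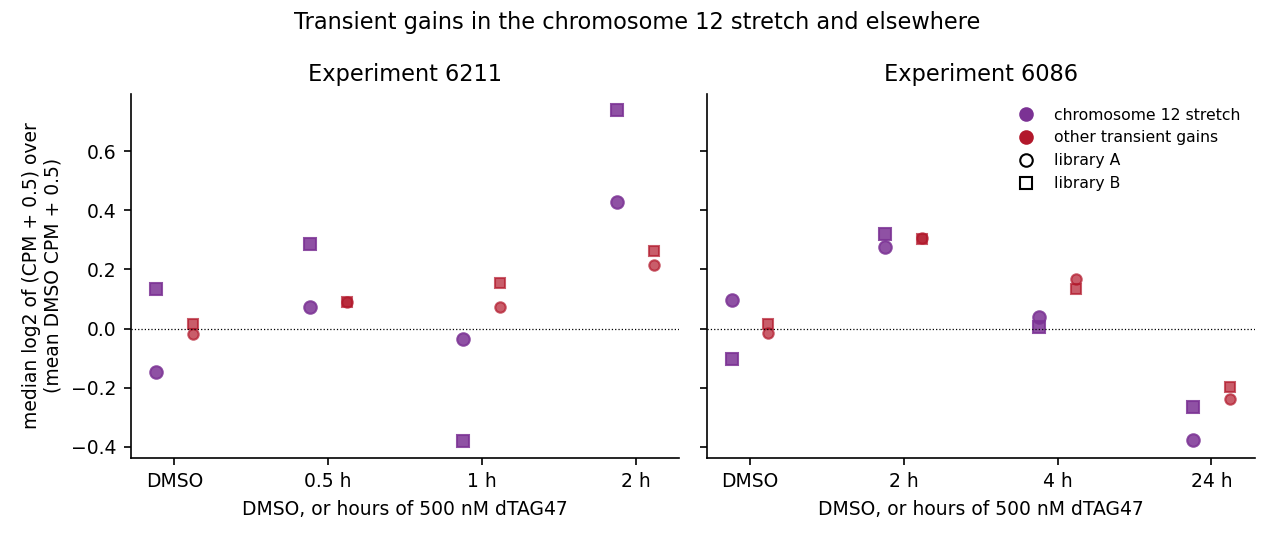
Library medians of the log2 ratio to the mean DMSO level for transient gains in the chromosome 12 stretch (purple, 16 regions in 6086 and 15 in 6211) and for all other transient gains (red), in 6211 (left) and 6086 (right), with circles for library A and squares for library B. Purple marks of 1 group lie farther apart than red ones in 6211, and at 1 h the purple medians are -0.036 and -0.38 while the red ones are 0.074 and 0.16.

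A pair of called regions on other chromosomes also had replicate libraries far apart, with library B above library A in DMSO, at 0.5 h and at 2 h and below it at 1 h. At chr10:42385111-42385361 the 6211 levels were 4.20 and 8.31 CPM in DMSO, 6.75 and 10.2 CPM at 0.5 h, 6.15 and 4.27 CPM at 1 h and 9.34 and 15.9 CPM at 2 h. This was the largest change at 2 h, 1.02 ± 0.27 (log2, SE; edgeR adjusted p = 0.019), and leaving out 2 h library B, leaving out DMSO library A or using DESeq2 ended its call. At chr18:108094-108547 they were 27.6 and 50.7 CPM in DMSO, 43.4 and 51.5 CPM at 0.5 h, 35.3 and 32.8 CPM at 1 h and 58.8 and 86.8 CPM at 2 h. This region lies near the end of the short arm, and the chromosome 10 region next to the centromere. The handling of reads with several possible positions is not stated in what was read here, and its part in these values was not tested. The chromosome 18 call (edgeR adjusted p = 0.0016) was lost with DESeq2 and without 2 h library B. Of the 74 called regions, 12 had a 1 h change below 0, and they were 9 regions of the chromosome 12 stretch, these 2 and chr10:104359659-104359967.

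The transient gains were narrower and less open than the other regions. Their median width was 290 bp, against 374 bp for all regions with at least 5 CPM, and their median level was 8.12 CPM, against 12.5 CPM. Per kb of width the medians were 30.1 CPM and 34.5 CPM. Only chr12:58461222-58462325 was 1 kb or wider, 0.173% of the transient gains, against 6.97% of all those regions. Between 5 and 10 CPM the median widths were 243 bp and 235 bp, and at 10 CPM or more 404 bp and 543 bp. The level is part of the rule, through its minimum and through the larger scatter of the ratio at low counts, so the width and level are a description. The 2 h gains with a 24 h ratio above 0 had a median width of 285 bp and a median level of 8.20 CPM, close to those of the transient ones.

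**Figure D5:**
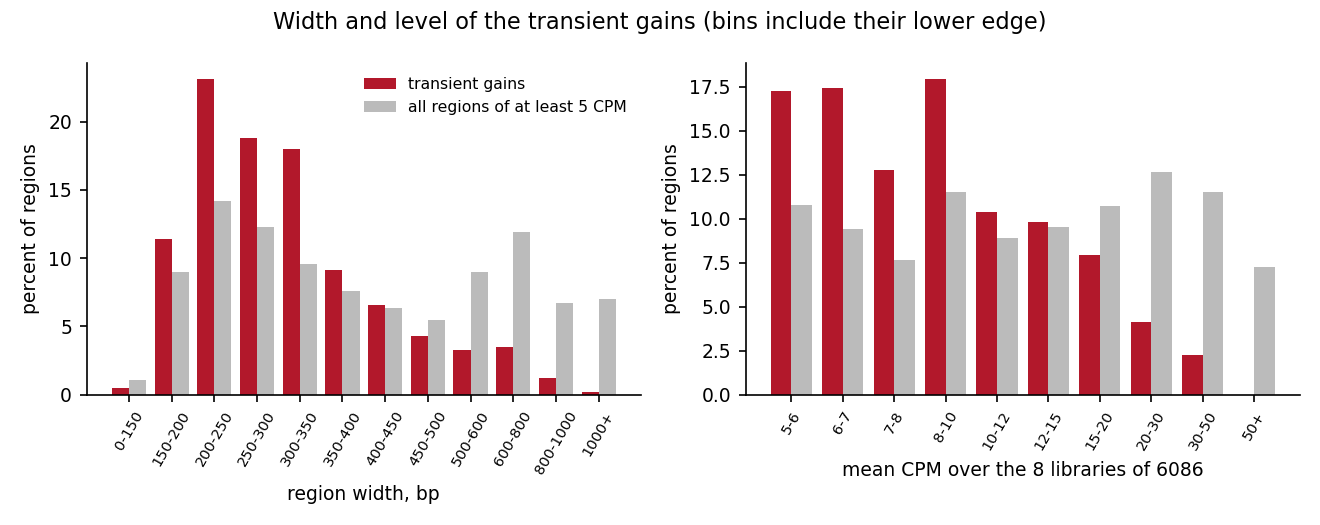
Percent of transient gains (red) and of all regions with at least 5 CPM (grey) by region width in bp (left) and by mean CPM over the 8 libraries of 6086 (right), in bins that include their lower edge. Red bars are taller at the narrow and low end, and only 0.173% of transient gains are 1 kb or wider, against 6.97% of all.

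Few transient gains lay close to one another. Another transient gain lay within 10 kb of 29 of the 579 and within 100 kb of 110. A region of any kind lay within 10 kb of 66.0% of them, against 62.1% of all regions with at least 5 CPM. Their distance to the nearest region of any kind had a median of 5026 bp, against 5566 bp for all regions with at least 5 CPM. Another region called higher at 2 h in 6086 lay within 50 kb of 14.7%, against 6.78%, and one called lower within 50 kb of 9.84%, against 14.4%. These shares count calls in the libraries the rule used.

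Neighbours that were not transient gains were counted within 10 kb, 350 regions with at least 5 CPM. In 6086 their 2 h ratio had a median of 0.077 and was above 0 in 74.6%, against a median of 0.016 and 55.1% of all regions with at least 5 CPM. There 6 were called higher, or 1.71%, against 0.978% of all regions tested. Another 2 were called lower, against 4.35% of all regions with at least 5 CPM. In 6211, 288 of them had a region not shared with a transient gain. Its median 2 h change was 0.14. In that experiment 17 were called higher, or 5.90%, against 1.97% of all regions tested, and 2 were called lower, or 0.694%, against 4.92%. No difference between neighbours and transient gains, or between neighbours and all regions, was tested.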

How the data were processed

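ATAC-seq of Rh30 cells was read from the authors' tables. The deposited count tables hold raw counts, the whole number of reads in each region and library. The authors' comparison tables also hold a mean normalised signal, log2 fold changes, p-values and a test statistic (a score), per the file headers, and of these only the log2 fold changes and adjusted p-values were used. The genome builds hg19 and dm3 and the tools deepTools, DESeq2, DiffBind, Genrich 0.6.1, Bowtie2 and Trimmomatic 0.32 are listed in the submitters' processing notes without a role; coordinates were taken as hg19. Shifting of reads for the transposase, treatment of duplicates and the merging of peaks are not given in the sources used here, and no spike-in scaling was applied, so a change common to all regions would not be seen.

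The rule was applied to CPM of 6086. A transient gain was matched to the 6211 region with the largest overlap, at least 1 bp. The test was that of edgeR 4.0.16, run in R 4.3.3 (TMM, filterByExpr, quasi-likelihood, 8 libraries per fit), with Benjamini-Hochberg adjustment over all 56945 regions of 6086 and 40844 of 6211. The fits had 4 residual degrees of freedom and a biological coefficient of variation of 3.48% in 6086 and 5.96% in 6211. The script was tested on simulated data. Chi-square per degree of freedom of replicate pairs was 1.34 to 2.66, so no pair agreed within sampling noise. DESeq2 1.42.0, other scalings, filters, overlaps and left-out libraries were alternatives. Tables were made with SciPy 1.17.1, NumPy 2.4.6 and pandas 2.3.3 under Python 3.11.15.

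Members and lists were chosen with earlier results of these data known. Named regions were the 10 largest changes called in 6211 with separated libraries, the 5 highest 2 h ratios, levels, widths and the 5 lowest 24 h ratios, those beside each threshold and the highest 2 h ratio in the densest windows, and a selection of these is described. The part of the rule on regions called lower found 0. The part on genes near region starts was not run, because no genome or annotation of hg19 was used here, and no sequences are given for the same reason.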

Additional observations from a re-analysis of the deposited data

Results flagged for a closer look

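The 2 h direction differed between the experiments in a few of the transient gains. In 11 of the 441 with a region in 6211, both 2 h libraries lay above both DMSO libraries in 6086 and below both in 6211. The 6211 part of this condition was met by 12 of the 441. Among all regions with at least 5 CPM and a region in 6211, it was met by 8137 of 38332. The condition for these 11 concerns the 2 h and DMSO libraries alone, and the difference between the experiments was not tested. In edgeR 0 of the 441 were called lower at 2 h in 6211, and 1 had an unadjusted p under 0.05 for a lower level.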

How the results depend on the processing

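The rule found 579 regions, and 200 with a minimum of 10 CPM; other scalings, minimums and pseudocounts gave 474 to 784, and leaving out a 6086 library 573 to 859. The set itself is less fixed than its size, since only 366 of the 579 were found when DMSO library A was left out, and 371 when library B was. In 6211 the count higher at 2 h (74) became 18 with DESeq2, 47 with only the groups compared, and 16 to 82 with a library left out. At 1 h the count higher (2) became 0 with DESeq2, 0 with only those groups, 6 with the replicate block and 0 to 19 with a library left out. The count lower at 1 h (1) became 0, 0 and 0 to 2 with DESeq2, only those groups and a library left out. At 0.5 h the count (0) was 0 to 3 with a library left out, and its median change of 0.094 was 0.057 to 0.12. For 2 h against 1 h the count (12) was 3 with DESeq2, 3 without the chromosome 12 stretch and 0 to 15 with a library left out. For 2 h against 0.5 h (6) it was 0 with DESeq2, 21 with only the groups compared, 11 with the replicate block, 3 with 50% reciprocal overlap, 3 without the chromosome 12 stretch and 0 to 8 with a library left out. The alternatives for the step against 0.5 h and for the count lower at 1 h were chosen after seeing the data. With a library left out, the 2 h change was -0.049 to 0.15 at chr18:19249760-19250058 and -8.2e-05 to 0.18 at chr12:113478508-113478747, negative without DMSO library B. The cause of these moves was not tested. The median 2 h change kept its sign in every alternative run. The letters A and B were not treated as pairs in the main fit. Differences between A and B libraries correlated at -0.14 to 0.15 across groups of 6086 and -0.052 to 0.21 in 6211. These values do not settle whether the letters mark pairs. With the replicate block the 2 h count was 83. Each group had 2 libraries, and a change of this size that was not called is not shown to be absent.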
